A study of Mus musculus with 7 samples.

Results

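The clustered histone genes encode the proteins around which DNA is wound. Every cell that copies its genome needs a fresh supply of H2A, H2B, H3 and H4, which form the core of the nucleosome, and of H1, which binds the linker DNA between nucleosomes. Most of these genes lie in a few dense clusters, are transcribed mainly in S phase, and give short messenger RNAs that end in a stem-loop in place of a poly(A) tail. The stem-loop binding protein Slbp holds that end, and the messages are destroyed when DNA synthesis stops. The set also holds germline variants made in testis or oocyte.

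The genes were measured on 1-colour arrays in C57Bl/6 mice, in 4 uninjured digits and 3 blastemas, the cell masses that rebuild an amputated digit tip, taken 2 weeks after amputation. The labels call the samples of each group separate biological replicates and name no treatment other than the amputation. Members were the genes whose symbol in the platform annotation begins with Hist1h to Hist4h, H1f and a digit, H2ac, H2bc, H3c or H4c, read from probe sets that list 1 symbol, with the brightest probe set taken per gene. This gave 29 of the 22180 genes measured this way, namely 8 of class H1, 6 of H2A, 8 of H2B, 7 of H4 and 0 of H3. In RefSeq, chromosome 13 holds 21 of the members and chromosome 3 holds 5, and 3 (H1f7, H1f8 and H1f10) lie outside these clusters. Another 37 symbols of the family, among them 12 of H3, occurred only on probe sets that list several genes, and these are described as probe sets without a gene name. Because family members are near-identical in sequence, part of the signal of a probe set with 1 symbol may also come from its relatives, which was not tested.

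Levels are log2 values, so a difference of 1 is a factor of 2. Levels of different probe sets served only for ranking, filtering and marking low signal, and were not read as amounts of message. A level of 5.52, under which 95% of 1105 olfactory receptor genes had their mean, served as a mark of low signal. Of the 29 members 8 had means above it in both groups, 3 in the uninjured group alone (H1f5, H1f10 and H2ac21) and 18 in neither. Across the series the blastemas were higher in bone, connective tissue, osteoclast and macrophage genes and lower in late epidermal genes. All 6 measured mesenchyme and bone markers were called higher (list means of 6.51 to 7.46 on the uninjured and 9.51 to 9.97 on the blastema arrays), as were 6 of 6 osteoclast markers (5.67 to 5.96 and 7.73 to 8.67) and 5 of 6 macrophage markers (6.60 to 6.86 and 7.27 to 7.69). Of the markers of differentiated epidermis 4 of 6 were called lower (11.40 to 11.59 and 10.53 to 10.82), while 0 of 5 basal epidermis markers were called (10.23 to 10.44 and 10.36 to 10.49; 1 was higher at an unadjusted p under 0.05 by limma). The part of this shift in cell makeup in the histone differences was not tested, and in whole tissue fewer cells of a type and less RNA per cell cannot be told apart.

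The promoters of 7 of the called members are shown, those of the 4 linker histone genes to compare their elements and those of H2bc18, H2bc14 and H4c12 for the core histones. The sequences are from RefSeq (GRCm38.p6), run from 130 bases before to 20 bases after the annotated start, and are written 5′ to 3′ on the strand of the gene. In the H1 promoters capitals mark AAACACA (the H1 box), CCAAT and TATAAA, in the H2B promoters ATTTGCAT (the octamer) and CCAAT, and in the H4 promoter GGTCCG, from the element bound by the H4 gene regulator Hinfp, and TATAAA, each on either strand. H1f1 lies at chr13:23763538-23763687 (plus strand), H1f2 at chr13:23738677-23738826 (plus), H1f3 at chr13:23554902-23555051 (plus), H1f5 at chr13:21780606-21780755 (minus), H2bc18 at chr3:96269570-96269719 (plus), H2bc14 at chr13:21721914-21722063 (plus) and H4c12 at chr13:21750534-21750683 (minus).
H1f1: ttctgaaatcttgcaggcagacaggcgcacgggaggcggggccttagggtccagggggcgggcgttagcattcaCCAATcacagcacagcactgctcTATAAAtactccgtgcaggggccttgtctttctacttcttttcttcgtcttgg
H1f2: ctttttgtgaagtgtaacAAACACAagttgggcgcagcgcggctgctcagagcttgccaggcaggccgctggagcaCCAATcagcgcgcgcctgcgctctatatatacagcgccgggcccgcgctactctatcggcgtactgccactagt
H1f3: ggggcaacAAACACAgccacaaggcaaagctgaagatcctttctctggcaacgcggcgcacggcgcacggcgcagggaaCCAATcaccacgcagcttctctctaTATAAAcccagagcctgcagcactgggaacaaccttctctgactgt
H1f5: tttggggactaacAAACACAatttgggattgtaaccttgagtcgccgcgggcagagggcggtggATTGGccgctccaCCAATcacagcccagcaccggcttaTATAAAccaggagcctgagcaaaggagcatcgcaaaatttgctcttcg
H2bc18: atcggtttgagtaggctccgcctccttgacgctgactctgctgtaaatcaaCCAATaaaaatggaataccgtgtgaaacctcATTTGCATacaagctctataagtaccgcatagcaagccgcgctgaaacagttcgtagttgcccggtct
H2bc14: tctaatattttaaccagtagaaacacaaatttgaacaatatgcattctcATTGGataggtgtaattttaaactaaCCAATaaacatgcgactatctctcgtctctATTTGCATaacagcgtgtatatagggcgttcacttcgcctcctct
H4c12: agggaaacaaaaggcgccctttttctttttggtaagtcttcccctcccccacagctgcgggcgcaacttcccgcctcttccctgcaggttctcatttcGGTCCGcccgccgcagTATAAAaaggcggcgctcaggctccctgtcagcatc

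In the H1 promoters the forward CCAAT began 51 to 56 bases before the start in H1f1, H1f2, H1f3 and H1f5. The H1 box began 112, 122 and 117 bases before the start in H1f2, H1f3 and H1f5, and the 300-base promoter of H1f1 held no exact match. TATAAA began 33, 26 and 28 bases before the start in H1f1, H1f3 and H1f5. Promoters of 27 members were in the table, and the exceptions were H2bc21 and H4c14. Over the 300-base windows (250 bases before to 50 after the start, both strands), AAACACA was in 4 of 8 H1 promoters against 7.18% of all 32851 promoters in the table, CCAAT in 20 of 27 member promoters against 37.4%, and TATAAA in 16 of 27 against 13.6%. ATTTGCAT was in 5 of 7 H2B and 3 of 6 H2A promoters against 1.74% of all, and in 0 of the H1 and H4 promoters. GGTCCG was in 5 of 6 H4 promoters against 8.25% of all. The 8 genes called lower and the 18 not called both held these elements, TATAAA in 5 of 8 and 11 of 18, CCAAT in 7 of 8 and 12 of 18, ATTTGCAT in 1 of 8 and 6 of 18, AAACACA in 3 of 8 and 3 of 18, and GGTCCG in 2 of 8 and 5 of 18.

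By limma with Benjamini-Hochberg adjustment over all genes, 8 of 29 members (27.6%) were called lower at an adjusted p under 0.05, where 4.66% of all genes were, and 1 member was called higher, where 4.98% of all genes were (9.64% in either direction). The 8 were the linker histone genes H1f1, H1f2, H1f3 and H1f5, the H2A gene H2ac21, the H2B genes H2bc9 and H2bc18 and the H4 gene H4c12, and the member called higher was the H2B gene H2bc14. The median log2 difference was -0.19 over the members and -0.01 over all genes, and 22 of the 29 differences were below 0. In 9 members every blastema array lay below every uninjured array (31.0%, against 10.6% of all genes). In 10 members the groups did not overlap in either direction, where this held for 21.0% of all genes. The count moved when single arrays were omitted. The members called lower numbered 5, 5, 4 and 3 when uninjured digit 1, 2, 3 or 4 was omitted, and 4, 3 and 3 when blastema 1, 2 or 3 was. Of all 22180 genes, 996, 505, 520 and 586, and then 1009, 429 and 365, were called lower in the same omissions. With all arrays 1034 genes were. The member called higher was not called when uninjured digit 3 or 4 or blastema 1, 2 or 3 was omitted, as given with its values below.

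**Figure D1:**
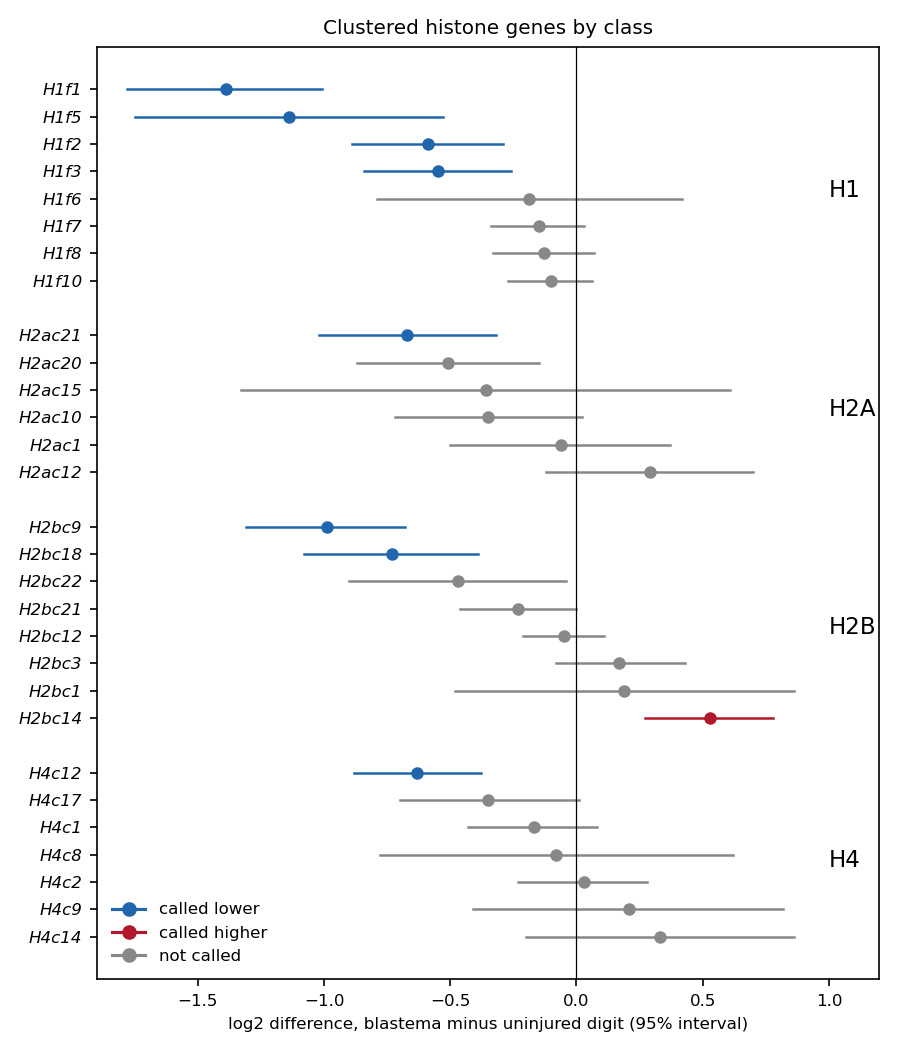
Log2 difference between blastema and uninjured digit (x axis; point, with its 95% interval as a line) for each of the 29 members, by histone class. All 8 points of class H1 lie left of 0, from -1.39 for H1f1 to -0.10 for H1f10, and H2bc14 at 0.53 is the member called higher.

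Of the 8 linker histone genes 4 were called lower, and all 8 differences were below 0. H1f1, which encodes H1.1, lay at 4.74, 5.41, 5.19 and 4.81 in the uninjured digits and at 3.65, 3.67 and 3.61 in the blastemas. The groups did not overlap, and the blastemas lay close together. The uninjured mean was 5.04 ± 0.32 (SD, n = 4) and the blastema mean 3.64 ± 0.03 (SD, n = 3), which gives a log2 difference of -1.39 ± 0.16 (SE), 2.63-fold lower (limma adjusted p = 0.00417). Both means were under the low-signal mark. The call held in each of the 7 omissions of 1 array (adjusted p = 0.00678 to 0.0284).

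H1f5, which encodes H1.5, lay at 5.43, 6.26, 6.14 and 5.49 in the uninjured digits and at 4.28, 4.84 and 4.95 in the blastemas. The uninjured digits fell into a high pair (arrays 2 and 3) and a low pair (arrays 1 and 4), and the highest blastema stayed below the low pair. The difference was -1.14 ± 0.26 (SE), 2.21-fold lower (adjusted p = 0.0360), with every blastema under the low-signal mark. It passed when uninjured array 1 was omitted (0.0389) and not when uninjured array 2, 3 or 4 or blastema array 1, 2 or 3 was (0.0875, 0.0995, 0.0572, 0.0894, 0.0981 and 0.0841).

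H1f2, which encodes H1.2, a widely expressed linker histone of somatic cells, lay at 7.58, 7.72, 7.60 and 7.78 in the uninjured digits and at 7.12, 6.79 and 7.33 in the blastemas. It was the called H1 gene with both means above the low-signal mark. The uninjured digits were close together (SD 0.10, n = 4), the blastemas less so (SD 0.27, n = 3), and the groups did not overlap. The difference was -0.59 ± 0.13 (SE), 1.51-fold lower (adjusted p = 0.0304). It passed without blastema array 3 (0.0345) and missed the threshold when uninjured digit 1, 2, 3 or 4 or blastema 1 or 2 was omitted (0.0532, 0.0871, 0.0733, 0.0848, 0.0631 and 0.0642).

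H1f3, which encodes H1.3, lay at 4.77, 5.03, 4.60 and 4.63 in the uninjured digits and at 4.38, 4.08 and 4.17 in the blastemas, all under the low-signal mark. The groups did not overlap. The difference was -0.55 ± 0.12 (SE), 1.46-fold lower (adjusted p = 0.0357). It passed without blastema array 1 (0.0380) and not when uninjured digit 1, 2, 3 or 4 or blastema 2 or 3 was omitted (0.0765, 0.0567, 0.0592, 0.0637, 0.130 and 0.129).

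The other H1 genes were not called. H1f10, which encodes the replacement linker histone H1x and lies outside the clusters, ranged from 5.56 to 5.64 in the uninjured digits and from 5.40 to 5.61 in the blastemas, a difference of -0.10 (95% interval -0.27 to 0.06, adjusted p = 0.395). The germline linker histones H1f6 (testis, H1t), H1f7 (spermatid) and H1f8 (oocyte) differed by -0.19 (-0.79 to 0.42), -0.15 (-0.34 to 0.03) and -0.13 (-0.33 to 0.07). All group means of these 3 genes were under the low-signal mark, and 4 arrays held the same level of 5.25 for H1f8. The median over the 8 H1 genes was -0.37.

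**Figure D2:**
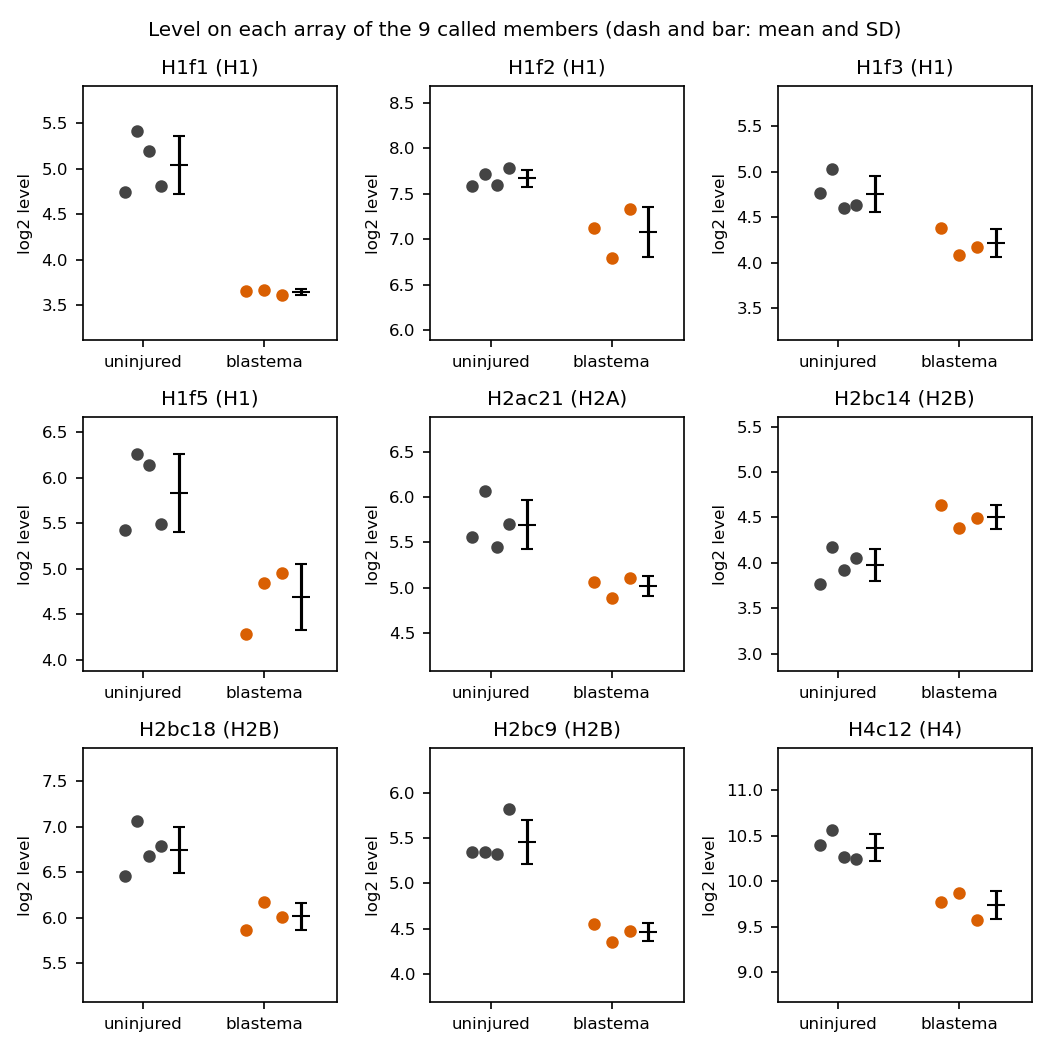
Log2 level on each array (points) of the 9 called members, uninjured digit (grey, n = 4) and blastema (orange, n = 3), with the mean and SD beside them; every panel spans the same number of log2 units. In 8 panels all blastemas lie below all uninjured digits, and in that of H2bc14 all lie above.

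Among H2A genes, H2ac21 was called lower. It lay at 5.56, 6.07, 5.45 and 5.70 in the uninjured digits and at 5.06, 4.89 and 5.11 in the blastemas. The groups did not overlap, and the uninjured mean was above and the blastema mean below the low-signal mark. The difference was -0.67 ± 0.15 (SE), 1.59-fold lower (adjusted p = 0.0326). It was not called when uninjured digit 1 or 4 or blastema 1, 2 or 3 was omitted (0.0527, 0.0862, 0.0693, 0.123 and 0.0948). H2ac21 was the member with a second probe set, which differed by -0.31 ± 0.10, and in a fit of all 41345 probe sets neither passed (adjusted p = 0.0505 and 0.139).

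H2ac20, the neighbour of H2ac21 in the chromosome 3 cluster, lay at 6.22, 6.36, 6.35 and 6.15 in the uninjured digits and at 5.37, 5.91 and 6.00 in the blastemas. The groups did not overlap, blastema array 1 being the lowest, and the difference of -0.51 (95% interval -0.87 to -0.15) did not pass (adjusted p = 0.0866). H2ac10 ranged from 8.97 to 9.55 in the uninjured digits and from 8.69 to 9.15 in the blastemas, which overlapped (-0.35, -0.72 to 0.02, adjusted p = 0.229). H2ac12 and H2ac15 read 1.55 to 3.44 over the 7 arrays, far under the low-signal mark, and differed by 0.29 (-0.12 to 0.70) and -0.36 (-1.33 to 0.61). The testis H2A gene H2ac1 differed by -0.06 (-0.50 to 0.37), with both group means under the low-signal mark. The median over the 6 H2A genes was -0.35.

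H2B genes went both ways. H2bc9 lay at 5.35, 5.34, 5.32 and 5.82 in the uninjured digits and at 4.55, 4.36 and 4.48 in the blastemas, with no overlap and with uninjured array 4 above the others. The difference was -0.99 ± 0.13 (SE), 1.99-fold lower (adjusted p = 0.00640), and it was called in each of the 7 omissions of 1 array (0.00897 to 0.0386). Both means were under the low-signal mark.

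H2bc18, of the chromosome 3 cluster, lay at 6.46, 7.07, 6.68 and 6.79 in the uninjured digits and at 5.87, 6.17 and 6.01 in the blastemas. All values were above the low-signal mark and the groups did not overlap. The difference was -0.73 ± 0.15 (SE), 1.66-fold lower (adjusted p = 0.0239). It was not called when uninjured digit 3 or 4 or blastema 1, 2 or 3 was omitted (0.0639, 0.0703, 0.0658, 0.0596 and 0.0944).

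H2bc14 lay at 3.77, 4.17, 3.92 and 4.05 in the uninjured digits and at 4.64, 4.38 and 4.49 in the blastemas. The blastemas were higher without overlap, at levels under the low-signal mark on every array. The difference was 0.53 ± 0.11 (SE), 1.44-fold higher (adjusted p = 0.0270). It was not called when uninjured digit 3 or 4 or blastema 1, 2 or 3 was omitted (0.0799, 0.0611, 0.0686, 0.0614 and 0.0959). Scaling each array to 7 reference genes moved the median of all genes to -0.459 and H2bc14 along with it, to 0.07 (adjusted p = 0.620). Its promoter holds the octamer 25 bases before the start, and that of H2bc18 holds it 48 bases before.

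The other H2B genes were not called. H2bc21, whose message can also be polyadenylated outside S phase, ranged from 5.91 to 6.17 in the uninjured digits and from 5.66 to 5.92 in the blastemas, a difference of -0.23 (95% interval -0.46 to 0.00, adjusted p = 0.195). H2bc22 differed by -0.47 (-0.90 to -0.04, adjusted p = 0.166), H2bc3 by 0.17 (-0.08 to 0.43), H2bc12 by -0.05 (-0.21 to 0.11) and the testis H2B gene H2bc1 by 0.19 (-0.48 to 0.86). The group means of H2bc22, H2bc12 and H2bc1 were under the low-signal mark, and those of H2bc3 were above it. H2bc12 held the same level of 5.45 on 6 of the 7 arrays, so its small interval is not a measure of precision. A level identical to 9 decimals on 3 or more arrays occurred in 6 of the 29 members and in 29.5% of all genes, and none of the called members was among the 6. The median over the 8 H2B genes was -0.14.

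Some H2A and H2B genes stand back to back and share the stretch between their starts. H2ac12 and H2bc12 start 178 bases apart and differed by 0.29 (-0.12 to 0.70) and -0.05 (-0.21 to 0.11). The testis pair H2ac1 and H2bc1 start 281 bases apart and differed by -0.06 and 0.19. In both pairs 0 genes were called, and 0 had an unadjusted limma p under 0.05.

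The H4 genes all encode the same or nearly the same protein, and 1 of the 7 was called. H4c12 lay at 10.40, 10.56, 10.26 and 10.24 in the uninjured digits and at 9.77, 9.87 and 9.57 in the blastemas. Every array was far above the low-signal mark and the groups did not overlap. Its mean went from 10.36 ± 0.15 (SD, n = 4) to 9.74 ± 0.15 (SD, n = 3), a difference of -0.63 ± 0.11 (SE), 1.54-fold lower (adjusted p = 0.0132). It was not called without blastema array 3 (0.0561) and was called in the other 6 omissions of 1 array (0.0301 to 0.0372).

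H4c9 ranged from 5.32 to 6.44 in the uninjured digits and from 5.82 to 6.31 in the blastemas, with overlap and a difference of 0.21 (95% interval -0.41 to 0.82). H4c14, of the chromosome 3 cluster, ranged from 5.01 to 5.11 in the uninjured digits and lay at 5.58, 5.86 and 4.80 in the blastemas. Its blastemas thus lay on both sides of the uninjured digits, and its difference of 0.33 (-0.20 to 0.86, adjusted p = 0.420) was 0.63 without blastema array 3 (adjusted p = 0.0281). Both group means of H4c14 were under the low-signal mark. On 3 of its uninjured arrays the level was the same 5.11, so the small uninjured spread is not a measure of precision. H4c17 differed by -0.35 (-0.70 to 0.01), H4c1 by -0.17 (-0.43 to 0.08), H4c8 by -0.08 (-0.78 to 0.62) and H4c2 by 0.03 (-0.23 to 0.28), all with group means under the low-signal mark. The median over the 7 H4 genes was -0.08.

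Probe sets that list several symbols, at least 1 of them of the family, name 52 family symbols. Of these 15 are also members, and the others include those of H3. There were 38 such probe sets, of which 1 lists a single family gene (H1f10, beside a gene outside the family), 3 repeated the values of another and 35 were distinct. In the fit with these probe sets added, 2 of the 35 (5.71%) were called lower, near the 4.66% of all features in that fit, and 0 higher (4.97% of all features). The median difference was -0.15, and 25 differences were below 0. The 12 H3 probe sets had a median of -0.18 with 11 below 0, and 0 were called. In 2 of the 12 (16.7%) every blastema lay below every uninjured digit, where this held for 10.6% of all features, and in 0 every blastema lay above. The 3 of them above the low-signal mark differed by -0.04, -0.15 and -0.83, the last resting on blastema values of 6.69, 5.03 and 5.48 (adjusted p = 0.228).

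The probe sets called lower were of H2B and H4. The H2B probe set, which lists H2bc7, H2bc11, H2bc13 and H2bc15, lay at 10.50, 10.78, 10.67 and 10.57 in the uninjured digits and at 10.05, 10.21 and 10.20 in the blastemas. It did not overlap between groups, and the difference was -0.48 ± 0.09 (SE), 1.39-fold lower (adjusted p = 0.0162). It was not called when uninjured digit 3 or blastema 2 or 3 was omitted (0.0538, 0.0549 and 0.0566). The H4 probe set, which lists 6 H4 genes, differed by -0.51 ± 0.10 (SE, adjusted p = 0.0249) under the low-signal mark. It was not called when uninjured digit 2, 3 or 4 or blastema 1 or 3 was omitted (0.0582, 0.0585, 0.0682, 0.0612 and 0.101). Among the genes it lists are the members H4c1, H4c2, H4c8, H4c9 and H4c17. On their own probe sets these differed by -0.17, 0.03, -0.08, 0.21 and -0.35 and were not called.

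Of the 6 distinct shared probe sets with a mean level above 9, 5 were below 0 and 1 above it, with a median of -0.06. A probe set that lists H2bc4, H2bc6 and H2bc8 lay at 10.86 ± 0.18 (SD, n = 4) and 10.78 ± 0.10 (SD, n = 3), a difference of -0.08 (95% interval -0.33 to 0.17). A probe set of 12 symbols, mostly of H2B, was lower in every blastema than in every uninjured digit and was not called (-0.46, 95% interval -0.76 to -0.16, adjusted p = 0.0701). A probe set that lists H2ac18, H2ac19 and H2ac20 differed by 0.17 (0.00 to 0.34, adjusted p = 0.200). On its own probe set H2ac20 differed by -0.51.

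**Figure D3:**
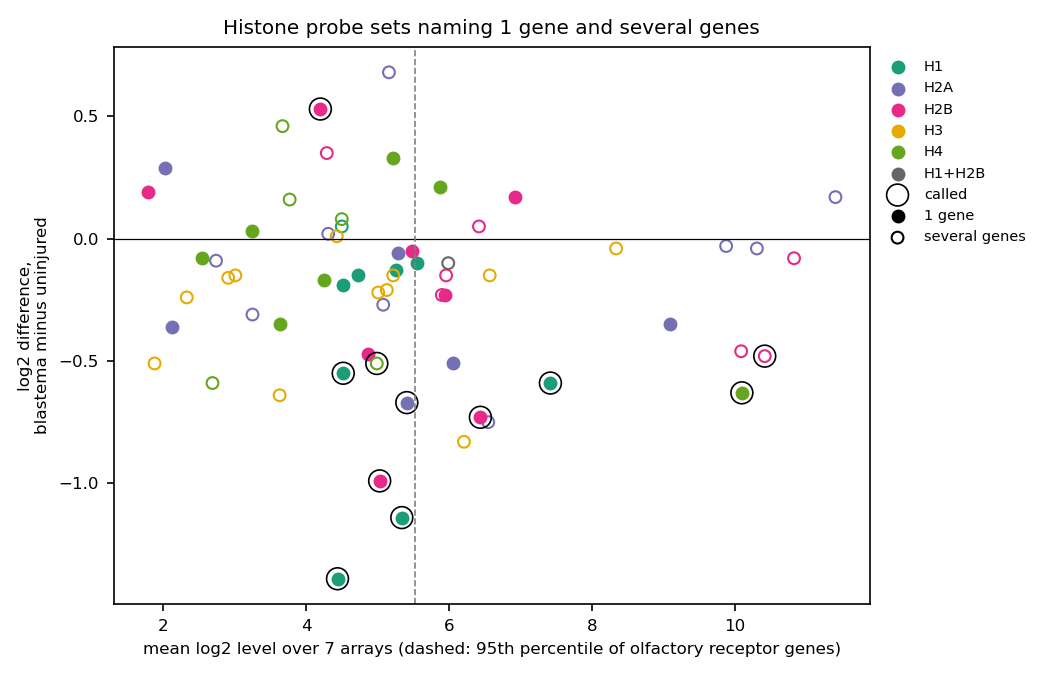
Log2 difference between blastema and uninjured digit (y axis) against the mean log2 level over the 7 arrays (x axis) for the 29 members (filled points) and the 35 distinct probe sets that list several symbols (open points), coloured by class; a black ring marks a call and the dashed line the low-signal mark of 5.52. Called members occur on both sides of the mark, from H2bc14 at a mean level of 4.20 to H4c12 at 10.10, while several probe sets above a level of 9 lie near 0.

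Genes of the cell cycle were counted in the same way. Of 27 measured S phase genes, among them genes that copy DNA and supply its precursors, 0 were called in either direction by limma. At an unadjusted limma p under 0.05, 3 were lower and 0 higher, and the median was -0.15. Of all 22180 genes, 2822 were lower and 2705 higher at that unadjusted p, which is the background for each list counted here and below. Pola1, a subunit of the polymerase that primes DNA synthesis, had the smallest p and differed by -0.49 (95% interval -0.88 to -0.10, adjusted p = 0.123). Of 19 mitosis genes 0 were called, with 2 higher and 0 lower at an unadjusted p under 0.05 and a median of 0.22. The mitotic kinase gene Plk1 had the smallest p and differed by 0.72 (0.26 to 1.18, adjusted p = 0.0674), with no overlap between groups. Plk1 was called in 1 of the 7 omissions of 1 array, that of blastema 1 (limma adjusted p = 0.0206), and in 5 of 9 other settings. These were array weights (0.0293), the replicate number as a block (0.0490), both filters of low-level genes (0.0438 and 0.0429) and omission of both arrays numbered 1. Mki67, which marks proliferating cells, differed by 0.23 (-0.52 to 0.98, adjusted p = 0.711). A difference between the histone genes and these lists was not tested.

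Relative to the mean over the 7 arrays, the mean of the 8 H1 genes was 0.18, 0.36, 0.20 and 0.17 in uninjured digits 1 to 4 and -0.28, -0.40 and -0.23 in blastemas 1 to 3. The mean of the mitosis genes was -0.48, 0.09, 0.03 and -0.02 on the uninjured and -0.17, 0.16 and 0.40 on the blastema arrays. Uninjured array 1 was the lowest of all for the mitosis genes, and for H1 it lay above every blastema and close to uninjured arrays 3 and 4. For H2B and H4 it lay at -0.04 and -0.10, the lowest of the uninjured arrays. For H2B it also lay above every blastema (-0.12 to -0.11). Over all 29 members the means were 0.03 to 0.30 on the uninjured and -0.19 to -0.14 on the blastema arrays. The mean of the S phase genes was -0.15, 0.25, 0.02 and 0.09 on the uninjured and -0.24, -0.01 and 0.03 on the blastema arrays, with overlap.

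**Figure D4:**
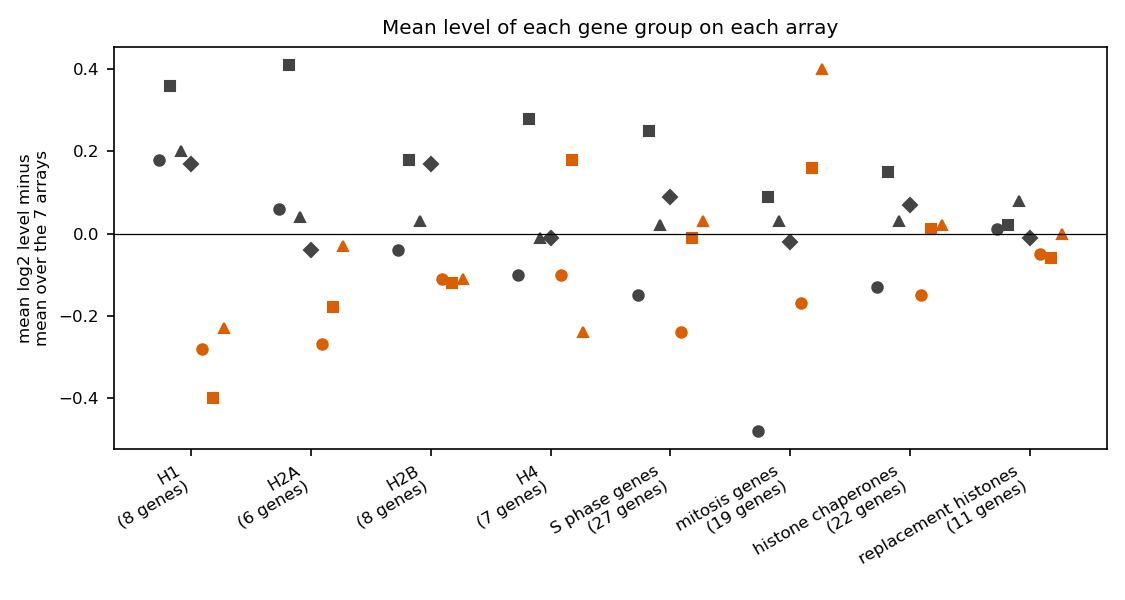
Mean log2 level of each gene group on each array, relative to its mean over the 7 arrays (y axis), for uninjured digits (grey) and blastemas (orange), with 1 marker shape per replicate number. The H1 means part the groups, from 0.17 to 0.36 against -0.40 to -0.23, and so do the H2B means, from -0.04 to 0.18 against -0.12 to -0.11. The H2A, H4, S phase, mitosis, chaperone and replacement histone means of the groups overlap.

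Genes that make, process and deposit histones were also counted. Of 20 measured genes of histone message transcription and 3′ end processing 0 were called by limma (1 higher and 2 lower at an unadjusted p under 0.05, median -0.05). Slbp, the stem-loop binding protein gene, which is also on the S phase list, lay at 7.25 ± 0.09 (SD, n = 4) and 7.02 ± 0.13 (SD, n = 3), without overlap, a difference of -0.24 (95% interval -0.44 to -0.04, adjusted p = 0.139). Sympk, a scaffold of the cleavage complex, had the smallest p of this list (0.27, 0.06 to 0.48, adjusted p = 0.118). Of 22 histone chaperone genes 0 were called (1 higher and 4 lower at an unadjusted p under 0.05, median -0.06). Hira, which deposits the replacement histone H3.3 outside S phase, differed by -0.27 (-0.46 to -0.09, adjusted p = 0.0760), and it was called when each array was centred on its median (0.0418) or among genes above the low-signal mark (0.0489).

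Of 11 replacement histone genes, of which H1f7, H1f8 and H1f10 are also members, 0 were called (1 higher and 1 lower at an unadjusted p under 0.05, median -0.10). H2aj, an H2A variant gene, had the smallest p (-0.53, 95% interval -0.89 to -0.18, adjusted p = 0.0726), with no overlap between groups, and it was called with array weights (0.0490) or with low-level genes left out (0.0477). Of 20 histone modifying enzymes 3 were higher and 3 lower at an unadjusted limma p under 0.05 (median 0.00). By adjusted p 0 were called lower and 1 was called higher (5.0%, near the 4.98% of all genes). It was Kmt5a, the enzyme that adds the first methyl group to a lysine of the H4 tail, whose uninjured mean was 10.17 ± 0.14 (SD, n = 4) and whose blastema mean was 10.73 ± 0.15 (SD, n = 3), higher by 0.56 ± 0.10 (SE, adjusted p = 0.0177). Kmt5a was not called without uninjured array 2 (0.0567) or blastema array 3 (0.0749), or without both arrays numbered 1 (0.0662). With the replicate number as a block it was not called either (0.0539). The reference gene scaling, with its shift of all genes, put Kmt5a at 0.11 (adjusted p = 0.462).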

How the data were processed

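Per the labels, 400 ng of total RNA per sample was amplified with a whole-transcript expression kit and labelled with biotin. The values deposited by the authors are log2 levels, made with oligo and RMA per the submitters' processing notes, with versions and array build not given in the sources used here. RMA evens out the arrays (medians 5.53 to 5.58), so a difference in total histone message shared with all genes would not show. Arrays have no read depth, and their number (7) limits the precision. The table had 0 columns of other samples.

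The annotation gave 1 symbol to 23521 of 41345 probe sets, several to 1814 and none to 16010. All 29 members were matched to the RefSeq table by Entrez identifier. The test was limma 3.58.1 (R 4.3.3), lmFit and eBayes with no covariate, blastema against uninjured, two-sided, adjusted over all 22180 genes, with calls at 0.05. SEs and 95% intervals come from that fit. The fitting script was tested on simulated data. Named genes were all called members, plus per class the highest-level members and the largest differences. In each related list they were the 3 called genes with the largest differences, or else that with the smallest p. Slbp and Mki67 were named for their role. Alternatives covered blocking, filtering, probe set choice, variance model, weights, scaling and omitted arrays. Members, lists and settings were chosen with earlier results of these data known. Figures used matplotlib 3.10.9.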

Additional observations from a re-analysis of the deposited data

Results flagged for a closer look

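In 6 of the 29 members 1 of the 4 uninjured arrays stood apart, its gap to the nearest other array taking up more of the range than the 95% critical value of Dixon's test. About 1 in 20 groups of normally distributed values do so by chance. That rate does not hold where arrays share a value, as in H1f8, H2bc3, H2bc12, H4c14 and H4c1. The share over all genes was not counted. The ratio was 0.943 for H2bc9, where array 4 read 5.82 and the others 5.32 to 5.35. It was 0.868 for H1f8 (array 3 at 5.49, the others 5.25 to 5.28) and 0.991 for H2bc3 (array 1 at 6.67, the others at 6.92). It was 1.0 for H2bc12 (array 2 at 5.64, the others at 5.45), H4c14 (array 4 at 5.01, the others at 5.11) and H4c1 (array 4 at 4.51, the others at 4.27), whose other arrays shared a single value. Of these 6 members H2bc9 was called, and without uninjured array 4 its difference was -0.87 (limma adjusted p = 0.00897).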

How the results depend on the processing

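The 8 members called lower stayed 8, with 1 higher, with the mean of all probe sets, robust variances with an intensity trend, weighted arrays or median scaling (member median -0.22). Each of these 8 kept a difference below 0 in every alternative that measured it. They numbered 5 lower and 0 higher after leaving out genes under the 30th percentile of level (1238 genes lower and 1304 higher; member median -0.23 over 15, H4 median 0.21 over 3) or genes under the low-signal mark, a choice made after seeing the data (1247 genes lower and 1313 higher; medians -0.51 for the 11 members left, -0.59 for H1 and -0.51 for H2A). Both of these filters left out H1f1, H1f3, H2bc9 and H2bc14, and the other called members stayed called. With every probe set tested the members called lower numbered 5, and 1619 probe sets were lower in all. Adding the shared probe sets gave 10 lower and a median of -0.15, also with 1 other symbol allowed (chosen after seeing the data). Scaling to 7 reference genes, of which 3 were themselves called higher, moved the median of all genes to -0.459 and called 481 genes higher and 15563 lower. Against that shift it gave 0 members higher and 22 lower, with medians of -0.64 (members), -0.82 (H1), -0.81 (H2A), -0.59 (H2B) and -0.53 (H4), and H4c2 turned to -0.43. Omitting 1 array gave 3 to 5 members lower and 0 to 1 higher, 365 to 1009 genes lower and 457 to 1286 higher, and medians of -0.29 to -0.17 (members), -0.51 to -0.27 (H1), -0.48 to -0.22 (H2A), -0.17 to -0.10 (H2B) and -0.23 to 0.01 (H4). Without both arrays numbered 1, 3 members were lower (H1f1, H2bc9 and H2bc18) and 0 higher, with a median of -0.22, while 1100 genes were lower and 1164 higher. With the replicate number as a block, 5 members were lower and 0 higher, and 304 genes lower and 295 higher. Uninjured array 4 has a number of its own and adds nothing to that fit. The deviations of same-numbered arrays correlated at 0.286, 0.151 and -0.0651, and those of differently numbered arrays at -0.223 to 0.140. These values do not settle whether the numbers pair the arrays. Causes of these moves were not tested, beyond fewer arrays or genes where the setting removes them. Low signal limits the 18 members under the mark.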
